A study of Bos taurus with 27 samples.

Results

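Of 9 cytosolic and mitochondrial heat shock protein genes looked for, 6 could be matched to a gene of the colon count table, and all 6 passed the filter on low counts. They are HSPA8 (ENSBTAG00000013162), HSP90AA1 (ENSBTAG00000006270), HSP90AB1 (ENSBTAG00000000778), HSPA4 (ENSBTAG00000015683), HSPH1 (ENSBTAG00000005012) and HSPA9 (ENSBTAG00000011419), out of 24616 genes in the table and 13943 genes tested. The genes were chosen by symbol and matched through the lists of symbols and Ensembl identifiers that accompany the study. HSPD1, DNAJA1 and DNAJB1 were also looked for, but no single identifier was found for them in these lists, so these 3 genes were not analysed here.

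Heat shock proteins are chaperones that bind unfolded or newly made proteins and help them to fold. Hsp70 proteins take up a client and release it in a cycle driven by ATP, J-domain proteins hand clients to them, and nucleotide exchange factors of the Hsp110 type reset the cycle. Hsp90 then finishes the folding of many kinases and receptors, and a separate Hsp70 works inside mitochondria, where it pulls in and folds imported proteins. Among the genes found, HSPA8 encodes the constitutive cytosolic Hsp70, HSP90AA1 and HSP90AB1 encode the inducible and the constitutive cytosolic Hsp90, HSPA4 and HSPH1 encode Hsp110-type exchange factors, and HSPA9 encodes the mitochondrial Hsp70.

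Colon tissue was collected from 27 Holstein bull calves when they were 51 h old, with 1 library per calf, made from 100 ng of total RNA with a kit that does not mark strand. Pooled pasteurized colostrum was first given to 9 calves each straight after birth (TRT0, 0 h) or with a delay of 6 h (TRT6) or 12 h (TRT12), and every calf later received milk replacer, so no group went without colostrum. Each treatment held 4 calves of primiparous heifers (H) and 5 calves of multiparous cows (C), which makes 6 groups, TRT0_H to TRT12_C, and a calf is named here by its number, a treatment code and its dam, as in X4122_2_H. The comparisons ask whether a delayed first colostrum meal, or the parity of the dam, goes with a different level of each gene.

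The gene counts summed to between 1163791 and 4202593 per calf (median 2215402). These sums are a small part of the reads that the study reports per sample, and the reason is not known here. The run names divide the libraries into 3 sets, called lanes 1 to 3 here, with 11, 11 and 5 calves. The treatments were spread unevenly over them. The leading number of the run name is the same for lanes 1 and 2 and another for lane 3, so lane 3 may be a separate run. Lane 3 held 2 TRT0_C, 1 TRT6_C and 2 TRT12_H calves. The sampled wall held epithelium and muscle, as shown by the mean levels of LGALS4 (563 CPM) and KRT19 (556 CPM), which mark epithelial cells, and of MYH11 (3476 CPM) and ACTG2 (2456 CPM), which mark smooth muscle. Levels are given as CPM, the counts of a gene divided by the gene counts of the calf and scaled to counts per 1000000. They are not divided by gene length, so they are compared between calves and not between genes. In bulk tissue, fewer cells of a type and less RNA per cell cannot be told apart.

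All 6 genes were read in every calf. The counts per calf ran from 886 to 3109 for HSPA8, from 453 to 1730 for HSP90AA1, from 479 to 2062 for HSP90AB1, from 170 to 590 for HSPA9, from 142 to 499 for HSPA4 and from 86 to 307 for HSPH1. Over the 27 calves the coefficient of variation of the CPM was 20.5% for HSPA8, 24.5% for HSP90AA1, 16.39% for HSP90AB1, 14.3% for HSPA4, 19.6% for HSPH1 and 15.01% for HSPA9. Counting error alone gives a coefficient of variation of 2.35% for HSPA8 and 7.64% for HSPH1, the deepest and the shallowest of these genes, so the calves differed by more than counting error. That error covers the sampling of reads only. The biological coefficient of variation that edgeR estimated lay between 0.146 (HSPA9) and 0.213 (HSP90AA1), against a median of 0.195 over all genes tested.

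HSPA8, the constitutive Hsp70, had a mean level of 825 ± 78.5 CPM in TRT0, 909 ± 214 CPM in TRT6 and 1037 ± 197 CPM in TRT12 (SD, n = 9 each). In TRT0_H the CPM values were 796, 857, 867 and 882, and in TRT0_C they were 684, 719, 847, 851 and 926. The values were 695, 873, 945 and 1399 in TRT6_H, and 668, 778, 921, 931 and 969 in TRT6_C. In the TRT0 and TRT6 groups all calves but X4122_2_H, at 1399 CPM, lay below the mean of TRT12.

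In TRT12_H the HSPA8 values were 739.8, 962, 1061 and 1397 CPM, and in TRT12_C they were 796, 1000.0, 1084, 1119 and 1170.0 CPM. Of the 9 TRT12 calves, 7 lay above the highest TRT0 calf, and the other 2 (X4139_3_H and X4145_3_C) lay within the range of TRT0. The 3 TRT12 calves with the lowest HSPA8 were the 3 calves with the highest sums of gene counts, at 4202593 (X4139_3_H), 3129171 (X4145_3_C) and 3048249 (X4128_3_H). The correlation of HSPA8 with these sums over all calves is given below. The part of these sums in the order of the TRT12 calves was not tested.

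**Figure D1:**
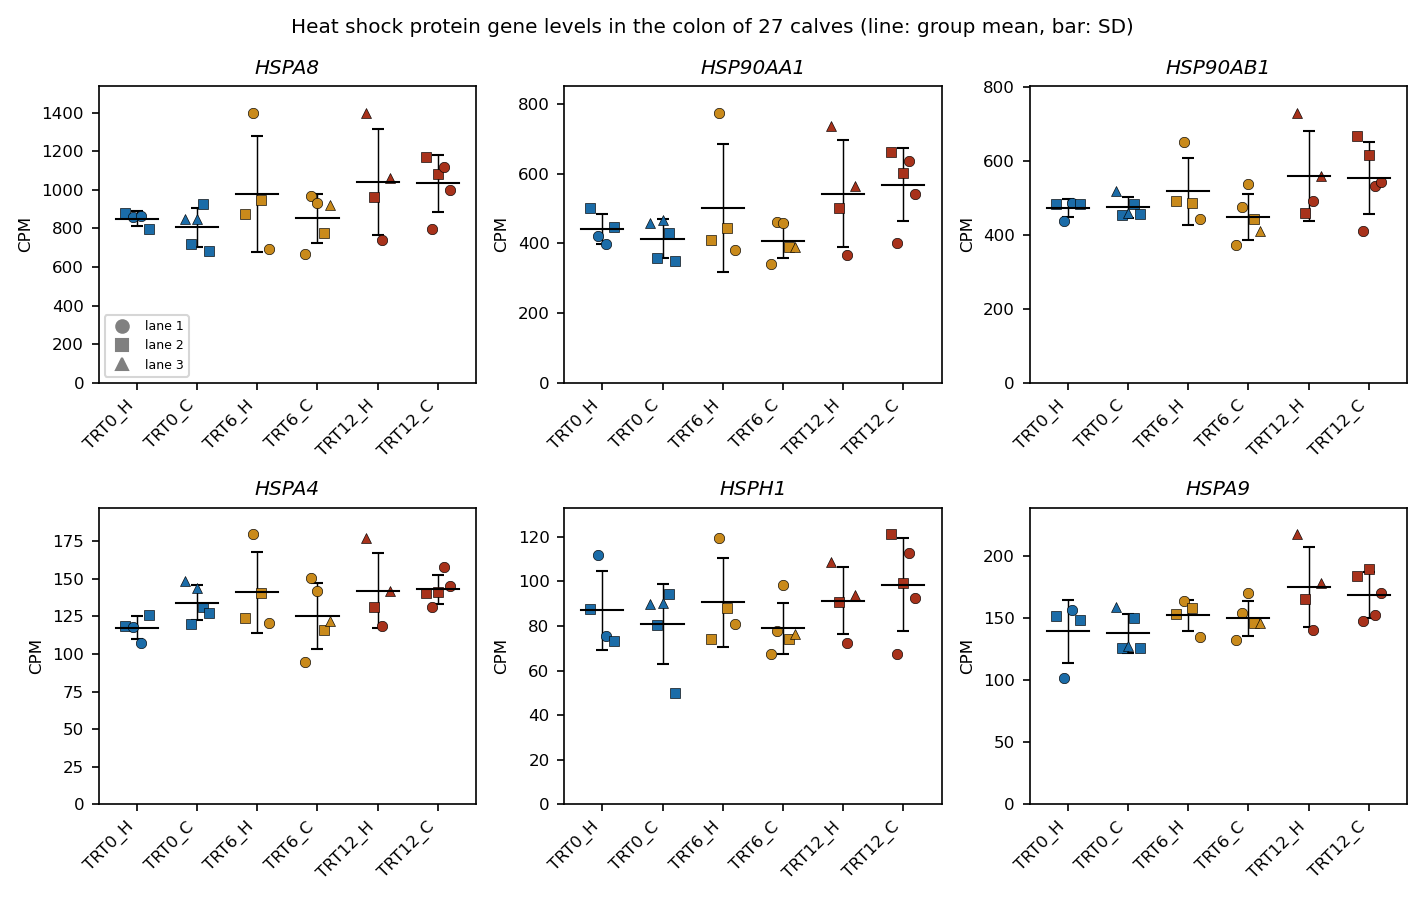
CPM of the 6 heat shock protein genes in each of 27 calves, by treatment and dam parity, with the line at the group mean, the bar at 1 SD and the marker shape giving the sequencing lane. TRT12 groups lie highest on average for all 6 genes, the groups overlap, and 1 TRT6_H calf at 1399 CPM of HSPA8 stands with the highest TRT12_H calf at 1397 CPM.

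The inducible Hsp90 gene, HSP90AA1, had lowest, median and highest values of 349, 429.7 and 501 CPM in TRT0, 341, 409 and 774 CPM in TRT6, and 365, 564 and 736 CPM in TRT12. In TRT12, 7 calves lay above all TRT0 calves, while in TRT6 1 calf did, X4122_2_H at 774 CPM. The remaining TRT6 calves reached at most 460.3 CPM. HSP90AB1, its constitutive partner, had 437, 483 and 519 CPM in TRT0, 374, 476 and 651 CPM in TRT6, and 410.3, 543 and 729.5 CPM in TRT12 in the same order, so the calves of TRT0 lay closest together and were inside the range of both other treatments.

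Of the Hsp110-type genes, HSPA4 had lowest, median and highest values of 107, 126 and 149 CPM in TRT0, 94.9, 124 and 179 CPM in TRT6, and 119, 141 and 177 CPM in TRT12. For HSPH1 the lowest, median and highest values were 49.96, 87.5 and 112 CPM in TRT0, 67.6, 77.7 and 119 CPM in TRT6, and 67.4, 94.0 and 121 CPM in TRT12. For both genes 2 TRT12 calves exceeded the highest TRT0 calf.

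The mitochondrial Hsp70 gene, HSPA9, had a mean level of 139 ± 19.2 CPM in TRT0, 151 ± 12.6 CPM in TRT6 and 172 ± 23.9 CPM in TRT12 (SD, n = 9 each). In TRT0_H the values were 102, 148, 152 and 156 CPM, and in TRT0_C they were 126, 126, 127, 150.2 and 159 CPM. TRT12_H calves had 140.4, 165, 179 and 218 CPM, and TRT12_C calves had 148, 153, 170.1, 184 and 189.6 CPM. In all, 6 TRT12 calves lay above the highest TRT0 calf, and the low value of 102 CPM belonged to a single calf, X4135_1_H.

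The comparison of TRT12 with TRT0 gave the largest differences of the 3 treatment comparisons, and no gene of the 6 passed. All 6 were higher on average in TRT12, with a median log2 fold change of 0.29 (1.22-fold), whereas 49.3% of all genes tested were higher and their median was -0.0039. By edgeR's quasi-likelihood test, 0 of the 6 genes and 0% of all genes tested were called at an adjusted p of 0.10 and a fold change of 1.2. Among the 6 genes, 4 had an unadjusted p under 0.05, as had 9.37% of all genes tested in either direction and 5.19% as higher in TRT12. The 6 genes moved together from calf to calf, as given below. In every comparison their count is therefore not a count of independent genes.

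HSPA9 had the smallest unadjusted p of the 6, with a log2 fold change of 0.33 ± 0.09 (SE), an unadjusted p of 0.00143 and an adjusted p of 0.410 (edgeR quasi-likelihood, Benjamini-Hochberg). The log2 fold change was 0.40 ± 0.14 for HSP90AA1 (unadjusted p = 0.00806) and 0.34 ± 0.13 for HSPA8 (unadjusted p = 0.0111), both with an adjusted p of 0.434 by the same edgeR test. HSP90AB1 followed at 0.25 ± 0.11 (unadjusted p = 0.0265, adjusted p = 0.478 by edgeR). The Hsp110-type genes had the smallest differences, at 0.18 ± 0.11 for HSPA4 (unadjusted p = 0.0960) and 0.19 ± 0.13 for HSPH1 (unadjusted p = 0.153). Without the TRT0_C calf X4149_1_C, HSPH1 was at 0.11. With 1 calf left out, 3 to 5 of the 6 genes had an unadjusted p under 0.05.

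DESeq2, with its own size factors, called HSPA8 (adjusted p = 0.0907), HSP90AA1 (adjusted p = 0.0907) and HSPA9 (adjusted p = 0.0502) as higher in TRT12. In all it called 51 genes, of which 48 were higher and 3 lower, out of the 13943 it was given. It did not set an adjusted p for every gene, and the number that had one is not known here. A share of 51 in 13943 is therefore too low for the genes it adjusted. DESeq2 gave HSP90AB1 an adjusted p of 0.137 and set none for HSPA4 and HSPH1. These genes were thus outside its adjustment, while that of edgeR covered all genes tested. The fold changes of both tools were nearly equal, at 0.34, 0.40 and 0.32 on the log2 scale by DESeq2 for HSPA8, HSP90AA1 and HSPA9. Over all alternatives the edgeR and DESeq2 adjusted p ranged from 0.0907 to 0.679 for HSPA8 and for HSP90AA1, and from 0.0502 to 0.679 for HSPA9. The call of these 3 genes therefore depended on the tool.

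For 5 of the 6 genes the TRT12 mean was above the TRT0 mean in each of the 3 lanes. Parity was not balanced inside the lanes. In lane 3 the 2 TRT0 calves were C and the 2 TRT12 calves H, so treatment and parity cannot be told apart there. In lane 1 the 2 TRT0 calves were H and 3 of the 4 TRT12 calves C. Mean HSPA8 was 914 CPM in the 4 TRT12 calves and 862 CPM in the 2 TRT0 calves of lane 1, 1072 CPM in 3 and 801 CPM in 5 calves of lane 2, and 1229 CPM in 2 and 849 CPM in 2 calves of lane 3. For HSPA9 the TRT12 and TRT0 means were 153 and 129 CPM in lane 1, 180 and 140.4 CPM in lane 2, and 198 and 143 CPM in lane 3. HSPH1 was the exception, with 86.2 CPM in TRT12 and 93.5 CPM in TRT0 of lane 1, against 104 and 77.1 CPM in lane 2 and 101 and 90.0 CPM in lane 3. Between lanes, edgeR called 336 genes (2.410%) and 0 of the 6, with unadjusted p from 0.0795 (HSPA4) to 0.521 (HSP90AB1).

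**Figure D2:**
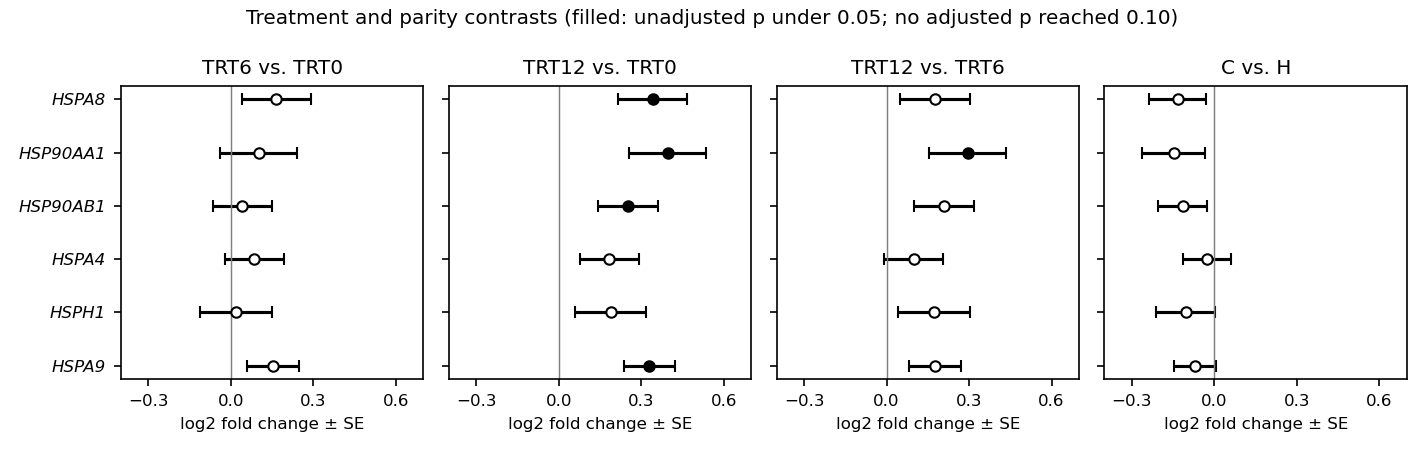
Log2 fold change (point) with its SE (bar) of the 6 genes in the comparisons of treatments and of dam parity, from edgeR, with filled points at an unadjusted p under 0.05. The points of TRT12 vs. TRT0 lie from 0.18 to 0.40, all above 0, and those of C vs. H from -0.15 to -0.03.

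TRT6 and TRT0 differed little. The log2 fold change lay between 0.02 (HSPH1) and 0.17 (HSPA8), the median was 0.09, and by edgeR 0 of the 6 were called or had an unadjusted p under 0.05, against 3.14% of all genes tested with such a p. DESeq2 likewise called 0. Without X4122_2_H and X4117_3_H, the 2 calves with the highest HSPA8, the log2 fold change of HSP90AA1 turned to -0.04, that of HSP90AB1 to -0.03 and that of HSPH1 to -0.06, while HSPA8 fell to 0.06 and HSPA4 to 0.01. This setting was chosen after seeing the data. Leaving out X4122_2_H alone gave 0.06 for HSPA8, 0.01 for HSPA4 and a median of -0.0073 over the 6 genes.

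TRT12 against TRT6 gave a median log2 fold change of 0.18, with all 6 genes higher in TRT12 on average, as were 49.5% of all genes tested. Only HSP90AA1 had an unadjusted p under 0.05, at a log2 fold change of 0.30 ± 0.14 (unadjusted p = 0.0436), where 3.14% of all genes tested had one, and 0 of the 6 were called by edgeR or DESeq2. With 1 calf left out, 0 to 3 of the 6 had such a p. It was 3 without X4122_2_H, X4128_3_H or X4140_2_C, and leaving out the TRT6 calf X4122_2_H raised HSP90AA1 to 0.43, HSPA8 from 0.18 to 0.28 and HSPA4 from 0.10 to 0.17. The 3 treatment comparisons share their groups, so they are not independent of each other.

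Calves of cows had slightly lower mean fitted levels than calves of heifers for all 6 genes, by a median log2 fold change of -0.11, while 48.8% of all genes tested were higher in calves of cows. The values ran from -0.15 ± 0.11 (HSP90AA1) to -0.03 ± 0.09 (HSPA4), with unadjusted p from 0.201 to 0.767 by edgeR. No gene of the 6 was called by edgeR or DESeq2 or had an unadjusted p under 0.05, a level that 2.52% of all genes tested reached. HSPA8 stood at 898 ± 155 CPM in the 15 C calves and 956 ± 228 CPM in the 12 H calves, and HSPA4 at 134 ± 16.2 and 134 ± 23.02 CPM (SD). These differences rested largely on the 2 calves with the highest HSPA8, both born to heifers. Without them the median was -0.02, HSP90AA1 was at -0.0063, HSPA8 at -0.01 and HSP90AB1 at -0.03, and HSPA4 turned to 0.06. Leaving out X4122_2_H alone gave -0.05 for HSP90AA1 and -0.06 for HSPA8.

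The treatment difference was also examined inside each parity. Among the C calves, TRT12 was higher than TRT0 for all 6 genes on average, with a median log2 fold change of 0.35, where 49.3% of all genes tested were higher, and 3 of the 6 had an unadjusted p under 0.05 against 9.87% of all genes tested. These were HSP90AA1 at 0.51 ± 0.19 (unadjusted p = 0.0103), HSPA8 at 0.42 ± 0.17 (unadjusted p = 0.0211) and HSPA9 at 0.37 ± 0.13 (unadjusted p = 0.00916). By edgeR and by DESeq2 0 of the 6 were called there, and adjusted p by edgeR lay between 0.427 and 0.739. With lane as an added term, 5 of the 6 had an unadjusted p under 0.05, and HSP90AA1 reached 0.67 with an adjusted p of 0.170 by edgeR. In that setting 1842 of the 13943 genes tested had such a p, against 1376 without the lane term. The TRT0_C and TRT12_C calves share only lane 2, with 3 and 2 calves. Leaving out the TRT0_C calf X4149_1_C lowered HSP90AA1 to 0.43, HSPA8 to 0.35 and HSPH1 from 0.33 to 0.18. With 1 calf left out, 2 to 5 of the 6 had an unadjusted p under 0.05, 2 without X4127_1_C or X4149_1_C and 5 without X4108_1_C, X4133_1_C or X4145_3_C.

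Among the H calves the same comparison gave a median log2 fold change of 0.23, with HSPA9 at 0.29 ± 0.15 (unadjusted p = 0.0594) and HSPH1 at 0.01 ± 0.19. These values depended on the lanes and on single calves. With lane as an added term the median was 0.06, HSPA8 fell from 0.24 to 0.04, HSP90AA1 from 0.24 to 0.02, HSP90AB1 from 0.20 to 0.07 and HSPA9 to 0.15, and HSPH1 turned to -0.13. Without the TRT12_H calf X4117_3_H, HSPA8 was at 0.10, HSP90AA1 at 0.09 and HSPH1 at -0.05. Without the TRT0_H calf X4135_1_H, HSPA9 was at 0.18 and HSPH1 at 0.19.

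The difference between parities in the treatment effect was tested by the interaction term, and 0 of the 6 genes passed, with unadjusted p from 0.262 (HSPA4) to 0.907 (HSPA9). Of all genes tested 0.00717% passed, which is 1 gene, RGS2, a regulator of G protein signalling, named because it was the gene called (adjusted p = 0.0559, edgeR quasi-likelihood). With lane as an added term, HSP90AA1 had an unadjusted p of 0.0340 for the interaction and an adjusted p of 0.895 by edgeR.

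Other comparisons inside a treatment or parity gave 0 calls among the 6 genes. TRT12_C against TRT6_C was the remaining one in which any of them had an unadjusted p under 0.05, with 2 of the 6 against 6.71% of all genes tested, HSP90AA1 at a log2 fold change of 0.50 ± 0.19 and HSP90AB1 at 0.34 ± 0.15. With 1 calf left out, 1 to 5 of the 6 had such a p there, 5 without the TRT6_C calf X4140_2_C. In TRT6, calves of cows had lower fitted levels than calves of heifers for all 6 genes, with a median of -0.26, where 51.0% of all genes tested were higher, and unadjusted p of 0.0750 or more by edgeR. That group of heifer calves holds X4122_2_H, without which the median was -0.07, HSP90AA1 went from -0.36 to -0.06 and HSPA8 from -0.25 to -0.02. With 1 calf left out, 0 to 3 of the 6 had an unadjusted p under 0.05, 3 without X4140_2_C.

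The 6 genes moved together from calf to calf. Over the 27 calves the Pearson correlation of log2 CPM lay between 0.456 (HSPA9 and HSPH1) and 0.948 (HSPA8 and HSP90AA1) for the 15 pairs, with a median of 0.796. Every pair had an adjusted permutation p of 0.0170 or less for Pearson's r and 0.0237 or less for Spearman's rho (two-sided permutation tests, 100000 resamples, Benjamini-Hochberg over 15 pairs). Among all pairs of genes tested the median r was -0.0017, and 0.0417% of pairs reached 0.796. Among the 1488 genes with a mean CPM of at least that of HSPH1 the median was 0.0727, and 0.700% of pairs reached that value. All of the 6 but HSPA9 belong to a co-expression module that the study built from these same calves, so their likeness is not independent of that choice.

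HSPA8 and HSP90AA1 formed the tightest pair. Their Pearson's r was 0.948 and Spearman's rho 0.881 (permutation p = 1.0e-05 for both, the smallest that 100000 resamples can give), and r was 0.918 without the 2 calves farthest from the median of HSPA8. It was 0.963 within lane 1 and 0.950 within lane 2, 0.945 with values centred within lanes and 0.938 with values centred within the 6 groups. Lane 3 held too few calves for a value. Centring within groups left 14 of the other pairs between 0.319 and 0.837.

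Within the cytosol, HSPA8 also followed HSP90AB1 (r = 0.856, rho = 0.766), HSPA4 (r = 0.822, rho = 0.778) and HSPH1 (r = 0.803, rho = 0.764), each with an adjusted permutation p of 1.0e-05 for r. These were 0.846, 0.797 and 0.786 after centring within lanes. Without the 2 calves farthest from the median of HSPA8 they were 0.782, 0.734 and 0.773. The Hsp110-type genes followed each other less closely, at r = 0.640 and rho = 0.720.

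For HSPA9, the mitochondrial gene, the relation to the others varied with the lane. Over all calves its r was 0.755 with HSPA8, 0.732 with HSP90AA1, 0.795 with HSP90AB1, 0.641 with HSPA4 and 0.456 with HSPH1. All 5 values were lower in lane 1 (-0.159 to 0.591) than in lane 2 (0.803 to 0.962), and the difference between lanes was not tested. X4135_1_H, a lane 1 calf, had the lowest HSPA9 of all calves at 102 CPM and ranked the fourth from the highest for HSPH1 at 112 CPM. Without that calf the r of HSPA9 and HSPH1 was 0.682, without X4149_1_C it was 0.304, and without the 2 calves farthest from the median of HSPA9 it was 0.671.

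A few calves were high or low for most of the genes. X4122_2_H (TRT6_H), X4117_3_H (TRT12_H) and X4126_3_C (TRT12_C) were each among the 3 highest calves for 5 of the 6 genes. X4122_2_H had the highest HSPA8, HSP90AA1 and HSPA4, and X4117_3_H the highest HSP90AB1 and HSPA9. At the other end X4134_2_C (TRT6_C) was among the 3 lowest for 5 genes and X4149_1_C (TRT0_C) for 4. Both X4122_2_H and X4117_3_H had low sums of gene counts, at 1264884 and 1314579, and came from different lanes. Over all calves the r of HSPA8 with the log2 total count was -0.369 and rho was -0.340 (permutation p = 0.0566 and 0.0821, adjusted p = 0.333 and 0.362 over 12 relations), and r was -0.149 without the 2 calves farthest from the median of HSPA8. With values centred within the 6 groups, r was -0.468 for HSPA8. Over the 6 genes it then lay between -0.4695 (HSP90AA1) and -0.209 (HSPH1).

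**Figure D3:**
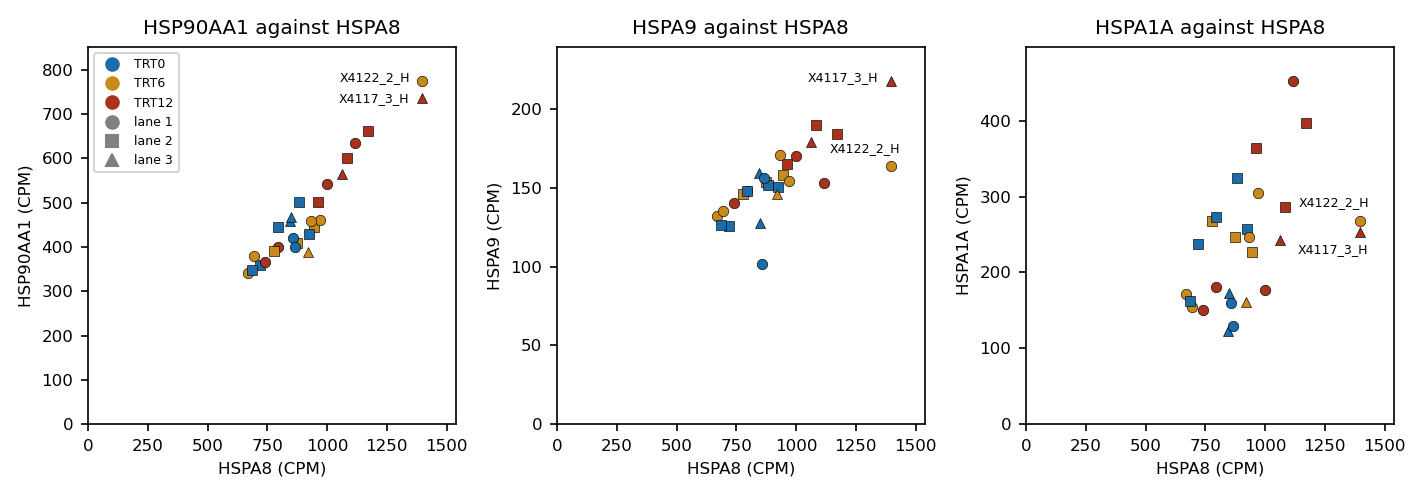
CPM of HSP90AA1, HSPA9 and HSPA1A against CPM of HSPA8 in 27 calves, coloured by treatment and shaped by lane, with the 2 calves of highest HSPA8 named. HSP90AA1 follows HSPA8 closely (r = 0.948 on log2 CPM), HSPA9 less (r = 0.755) and HSPA1A at r = 0.451.

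The stress-inducible Hsp70 gene HSPA1A was the sole other Hsp70 gene of the list with an identifier. Its lowest, median and highest levels were 122, 173 and 324 CPM in TRT0, 154, 247 and 305 CPM in TRT6, and 150.4, 253 and 452 CPM in TRT12, with a coefficient of variation of 34.99%. The 2 calves with the highest HSPA8 were not the highest for HSPA1A, at 268 CPM in X4122_2_H and 253 CPM in X4117_3_H. The r of HSPA1A with HSPA8 was 0.451 and rho was 0.468 (permutation p = 0.0180 and 0.0145, adjusted p = 0.0849 and 0.0880 over the 13942 other genes tested). That r was 0.678 with values centred within lanes, 0.562 within lane 1 and 0.778 within lane 2. It was 0.294 with values centred within the 6 groups and 0.465 without the 2 calves farthest from the median of HSPA8. In TRT12 vs. TRT0 its log2 fold change was 0.45 ± 0.19 (unadjusted p = 0.0250, adjusted p = 0.473 by edgeR).

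Partners of the chaperone cycle were compared with HSPA8 over the same calves. Of 37 other chaperone and cofactor genes, 24 had an adjusted permutation p of 0.05 or less for r with HSPA8, each with a positive r, and 22 for rho (Benjamini-Hochberg over the 13942 other genes tested). Of all these genes 15.8% had such a p for r, 8.06% had one with a positive r, and 11.1% had one for rho. Among genes with a mean CPM of at least that of HSPH1, 21.2% had one with a positive r.

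The way the genes were named bears on these counts. Of the 37, 13 had an identifier only through tables of co-expression modules that the study built on these same calves. The 7 named only by the module that holds HSPA8 (HSPE1, GRPEL1, AHSA1, BAG1, DNAJB11, MANF and CRYAB) had r between 0.481 and 0.878, and the 6 named only by other modules (PFDN5, PFDN6, BAG2, BAG5, CLPB and HSF4) had r between -0.432 and 0.303, so the high and low values of these genes follow in part from their module. HSF4, the lowest at -0.432, had a mean of 1.99 CPM and 0 counts in 1 calf, so it lies near the floor of the counts. PFDN6 went down to 6 counts. Of the 24 genes named in the study's list of core colon genes, 18 passed for r and 18 for rho. Of these 24, 14 are not in the module table of HSPA8, and 8 of the 14 passed.

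The 4 Hsp90 co-chaperones with an identifier lay between 0.693 and 0.918, led by PTGES3, the p23 protein that stabilises closed Hsp90, at r = 0.918 and rho = 0.846. FKBP4, a co-chaperone of steroid receptors, had r = 0.726 and rho = 0.739. Centring within lanes gave 0.910 for PTGES3 and 0.761 for FKBP4, and leaving out the 2 calves farthest from the median of HSPA8 gave 0.897 and 0.789.

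The 6 subunits of CCT with an identifier, which form the cytosolic ring that folds actin and tubulin, lay between 0.642 and 0.862 with HSPA8. Among them CCT3 had r = 0.764 and rho = 0.773, and CCT4 had r = 0.642 and rho = 0.661. Of the 3 mitochondrial genes, HSPE1, the co-chaperonin that caps the Hsp60 ring, had r = 0.878 and rho = 0.812, GRPEL1, the exchange factor of HSPA9, r = 0.504 and rho = 0.481, and CLPB, a disaggregase, r = -0.067 and rho = -0.153. All 3 were named only by module tables, HSPE1 and GRPEL1 by that of HSPA8 and CLPB by another, so these values are no independent evidence. Without the 2 calves farthest from the median of HSPA8, r was 0.777 for CCT3, 0.496 for CCT4, 0.848 for HSPE1 and 0.376 for GRPEL1.

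The 10 endoplasmic reticulum chaperones with an identifier followed HSPA8 too, with r between 0.619 and 0.882. HSP90B1, the Hsp90 of the endoplasmic reticulum, had r = 0.882 and rho = 0.832, CALR (calreticulin) r = 0.879 and rho = 0.824, and CANX (calnexin) r = 0.847 and rho = 0.825. After centring within lanes these were 0.868, 0.880 and 0.826, and after leaving out the 2 farthest calves 0.857, 0.857 and 0.849. The remaining chaperone types ranged more widely. The small heat shock proteins HSPB1, HSPB6 and CRYAB had r = 0.061, 0.059 and 0.481. The heat shock factor HSF4 had r = -0.432, the heat shock factor binding protein HSBP1 -0.005, and the prefoldin subunits PFDN5 and PFDN6 0.095 and 0.303. Of the Hsp70 exchange and partner factors, BAG1 had 0.523, BAG2 -0.012, BAG5 0.197, BAG6 0.279 and ST13, which links Hsp70 to Hsp90, 0.647, which is above the lowest value among the CCT subunits and among the endoplasmic reticulum chaperones.

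**Figure D4:**
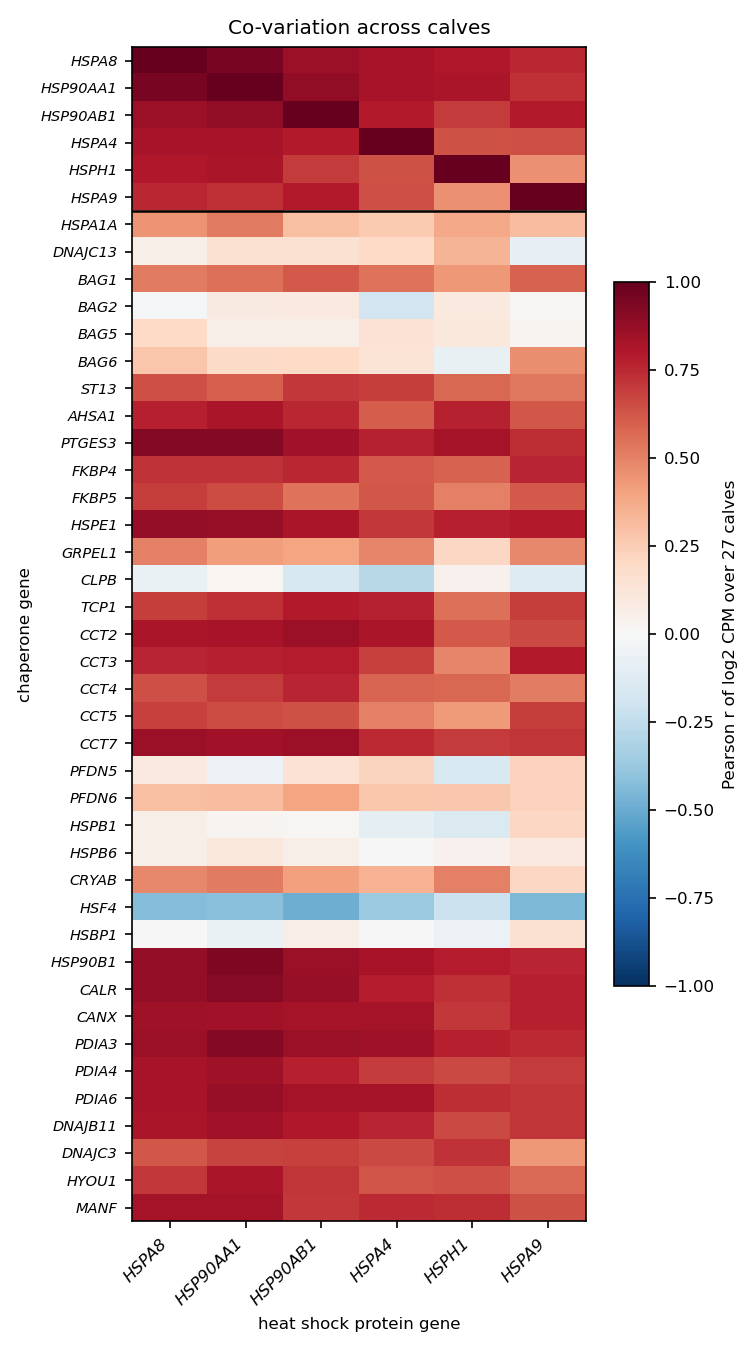
Pearson r of log2 CPM over 27 calves between each of the 6 genes (columns) and the same 6 genes and 37 other chaperone or cofactor genes (rows, below the line). The co-chaperones of Hsp90, the CCT subunits and the endoplasmic reticulum chaperones lie between 0.424 (CCT5 with HSPH1) and 0.931 (HSP90B1 with HSP90AA1) over all columns, whereas HSPB1, HSPB6, HSBP1 and DNAJC13 lie near 0 with HSPA8 (0.061, 0.059, -0.005 and 0.061).

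The genes most like the 6 included several chaperones of the secretory pathway. The mean scaled log2 CPM of the 6 genes gave the highest r over 27 calves with HSP90B1 (0.938), PTGES3 (0.931), PDIA3 (0.931), RPN2 (0.927), CALR (0.921), EIF5A (0.921), PRDX1 (0.908), HSPE1 (0.901), CANX (0.900) and PDIA6 (0.893), taken from the genes with a symbol. PDIA3 and PDIA6 are disulfide isomerases, RPN2 is a subunit of the oligosaccharyltransferase, EIF5A is a translation factor and PRDX1 a peroxidase. For HSPA8 alone the 5 closest were PTGES3 (0.918), EIF5A (0.900), KPNA2 (0.883), HSP90B1 (0.882) and ENO1 (0.880). In all, 107 of the genes tested had r of 0.8 or more with the mean of the 6 and 60 with HSPA8. All but EIF5A of the 10 genes closest to the mean are in the module built by the study on these calves.

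The same gene groups were read in TRT12 vs. TRT0, where edgeR called 0 of any list. All 10 endoplasmic reticulum chaperones were higher on average in TRT12, 8 of them with an unadjusted p under 0.05, and their median was 1.37-fold, with HSP90B1 at a log2 fold change of 0.51 ± 0.19 and CALR at 0.47 ± 0.16. All 4 Hsp90 co-chaperones had such a p, with a median of 1.23-fold, PTGES3 at 0.30 ± 0.10 and FKBP4 at 0.31 ± 0.12. All 6 CCT subunits were higher on average, 2 with such a p, at a median of 1.16-fold. HSPE1 was at 0.35 ± 0.11 (unadjusted p = 0.00455), GRPEL1 at 0.36 ± 0.13 (unadjusted p = 0.00853) and CLPB at -0.03 ± 0.14. The share of all genes tested with an unadjusted p under 0.05 and higher in TRT12 was 5.19%. The endoplasmic reticulum chaperones, Hsp90 co-chaperones and CCT subunits followed HSPA8 over these calves. Their counts are therefore not independent of each other or of the 6 genes.

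The small heat shock proteins had a median of 1.08-fold over 3 genes tested, 0 with an unadjusted p under 0.05, with HSPB1 at a log2 fold change of 0.11 ± 0.24, HSPB6 at 0.01 ± 0.16 and CRYAB at 0.40 ± 0.22. The heat shock factor HSF4, with a mean of only 1.99 CPM, and the binding protein HSBP1 were at 0.01 ± 0.37 and 0.06 ± 0.11. Hsp70 exchange and partner factors had a median of 1.04-fold over 5 genes, of which BAG6 had an unadjusted p of 0.0214 at 0.18 ± 0.07. DNAJC13, a J-domain protein of endosomes, was at 0.02 ± 0.10. JUN, an immediate early gene that rises quickly on stress and handling, was at -0.04 ± 0.18.

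Of the 8 marker sums, 2 passed the test of correlation with all 6 genes. The sum of goblet cell markers (AGR2, CLCA1 and TFF3, 3 of 6 listed) had r between 0.575 (HSPA9) and 0.764 (HSP90AA1), and rho between 0.653 and 0.818. The sum of proliferation markers (TOP2A, PCNA and BIRC5, 3 of 7 listed) had r between 0.608 (HSPH1) and 0.844 (HSPA4), and rho between 0.606 and 0.808. PCNA and BIRC5 have an identifier only through the table of the module that holds 5 of the 6 genes, and AGR2 is in that module too, so these correlations are not independent of how the module was built. Every one of these 12 relations had an adjusted permutation p of 0.00640 or less, of 48 computed. Centring within lanes gave 0.571 to 0.761 and 0.548 to 0.830, and leaving out the 2 calves farthest from the median of each gene gave 0.570 to 0.755 and 0.451 to 0.809, where 6 and 5 of the 6 relations passed.

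These sums differed on average between treatments too, which was not tested. The lowest and highest goblet cell sums were 459 and 1232 CPM in TRT0, 466 and 1590 CPM in TRT6, and 521 and 1499 CPM in TRT12. For the proliferation sum they were 201 and 268, 188 and 309.9, and 212 and 340.0 CPM. In TRT12 vs. TRT0 all 3 goblet cell markers were higher on average (median 1.29-fold, 1 with an unadjusted p under 0.05), as were all 3 proliferation markers (median 1.19-fold, 1 with such a p) and all 7 epithelial markers (median 1.16-fold, 2 with such a p). Of all genes tested, 49.3% were higher in TRT12, and 5.19% were higher with such a p. The epithelial sum (7 of 9 listed) ran from 2304 to 3073 CPM in TRT0 and from 2245 to 3879 CPM in TRT12, and its r with the 6 genes was 0.183 to 0.439, with 0 of 6 relations passing. That count rested on 1 calf. Without X4117_3_H, a setting chosen after seeing the data, r was 0.253 to 0.635 and 4 of 6 passed, and without the 2 calves farthest from the median of each gene it was 0.155 to 0.656 and 3 passed. Without TMM factors it was -0.0128 to 0.260. None of these sums was at 0 in any calf. The part of cell composition in the levels of the heat shock protein genes was not tested.

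HSPA8 was also compared with the single markers. AGR2, itself a disulfide isomerase of the endoplasmic reticulum, had r = 0.770 and rho = 0.708 with HSPA8. TFF3 had r = 0.450 and rho = 0.4335, and CLCA1, a secreted goblet cell protein, r = 0.348 and rho = 0.381. The adjusted permutation p for r was 8.67e-05 for AGR2, 0.0392 for TFF3 and 0.107 for CLCA1 (13 relations). For rho it was 0.00117, 0.0532 and 0.0728. These adjusted p cover 13 relations, computed after the sums were seen, while those of the chaperones above cover 13942 genes. HSPA1A, with r = 0.451, had an adjusted permutation p of 0.0849 over the larger set. Of the genes in that set, 8.06% passed with a positive r. AGR2 had the highest mean level of the 3, at 525 CPM, against 360 CPM for CLCA1 and 68.1 CPM for TFF3. For TOP2A r and rho were 0.648 and 0.585, for PCNA 0.736 and 0.605 and for BIRC5 0.761 and 0.666. Of the 7 epithelial markers, VIL1 had r = 0.544 and rho = 0.559, with an adjusted permutation p of 0.00835 for r over the 13 relations. The others had r from 0.161 (KRT19) to 0.377 (KRT8), each with an adjusted permutation p above 0.05. Without the 2 calves farthest from the median of HSPA8 the r values were 0.696 for AGR2, 0.495 for CLCA1, 0.524 for TOP2A and 0.592 for PCNA.

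Near-identical copies limit some counts. Reads that matched more than 1 gene were left out before the counts were made, so a gene with a close copy can be undercounted. One gene of the table, LOC783577 (ENSBTAG00000047699), is named in the study's list as a pseudogene of HSP90AB1, and its level ran from 11.9 to 50.6 CPM, highest in X4122_2_H. HSPA8 and HSPA1A also have close relatives in mammals, and how reads divided between them is not known here.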

How the data were processed

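Total RNA of colon tissue from 27 calves was sequenced, and the authors deposited raw counts of reads for each Ensembl gene and calf, without normalization. To make them the authors kept reads that passed the chastity filter, aligned them to UMD3.1 with TopHat2 2.1.1, sorted the alignments with SAMtools 1.4 and counted with HTSeq, and reads that matched several genes were discarded. The strand setting and the annotation release are not given in the sources used here.

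Treatment was taken from the labels, and dam parity, which the labels do not give, from the animal table of the study. What is called lane here was read from the run names, and the labels do not use the word. Symbols came from the study's gene tables, which name 4046 genes, so many listed chaperones and markers have no identifier and the red blood cell list has none. Some symbols came from co-expression module tables built on these calves. The calves were counted as replicates. No sequence table was used, and HSPD1, DNAJA1 and DNAJB1 were left out.

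The tests covered 13943 genes that reached 1 CPM in 5 or more of the 9 calves of every treatment. They were run with edgeR 4.0.16 (R 4.3.3) on TMM-scaled libraries (factors of 0.886 to 1.15), with glmQLFit and glmQLFTest, and Benjamini-Hochberg adjustment over all genes tested. The 4 overall comparisons used additive terms for treatment and parity, and the 9 comparisons inside a treatment or parity used 6 group means. A call needed an adjusted p of 0.10 or less and a fold change of 1.2 or more. Printed CPM values use the sum of gene counts, while correlations used log2 CPM with TMM library sizes and a prior count of 2, with 100000 permutations in Python 3.11.15 (numpy 2.4.6, scipy 1.17.1, pandas 2.3.3). Figures were drawn with matplotlib 3.10.9.

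Alternatives were DESeq2 1.42.0, edgeR's likelihood ratio test, library totals without TMM, the 10 highest genes left out, no filter, CPM of 1 or more in all calves, lane as a term, no parity term, compared groups only, an adjusted p of 0.05, and each calf left out in turn. The named genes are the 6 heat shock protein genes, the 2 genes of each other list with the highest mean CPM, any gene called, the 10 genes most like the mean of the 6 and the 5 most like HSPA8. Other genes named were chosen after their values were seen. The genes and lists were chosen with earlier results of these data known. The tests were tested on simulated data.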

Additional observations from a re-analysis of the deposited data

Results flagged for a closer look

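The values of each of the 6 genes were examined for a calf far from the others of its treatment, in 18 sets of 9 calves, where chance alone gives about 1 such calf in 20 sets. In TRT6, X4122_2_H had 1399 CPM of HSPA8, and its gap to the next calf, at 969 CPM, was 0.588 of the range of the treatment. In the same treatment X4122_2_H had 774 CPM of HSP90AA1, against 460.3 CPM in the next calf, a gap of 0.724 of the range. Both exceeded Dixon's 95% critical value for 9 calves. Without X4122_2_H and X4117_3_H, a setting chosen after seeing the data, the TRT12 vs. TRT0 log2 fold change was 0.29 ± 0.11 for HSPA8 and 0.34 ± 0.12 for HSP90AA1 (SE), with adjusted p of 0.430 and 0.417 by edgeR's quasi-likelihood test.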

How the results depend on the processing

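In the treatment, parity and interaction comparisons, edgeR called 0 of the 6 genes under every alternative run. DESeq2 called 3 in TRT12 vs. TRT0, where it called 51 of 13943 genes and edgeR's quasi-likelihood test 0. Before adjustment, 1284 genes and 4 of the 6 had a p under 0.05 by DESeq2. By edgeR's quasi-likelihood test, 1307 genes and 4 of the 6 did. The adjusted p of DESeq2 did not cover all of the 13943 genes, and the cause of the difference in calls was not tested. The sign of all 6 in TRT12 vs. TRT0 was positive in every alternative. In TRT6 vs. TRT0, the log2 fold change turned to -0.0425 for HSP90AA1, -0.0285 for HSP90AB1 and -0.0641 for HSPH1 without the 2 calves with the highest HSPA8, and to -0.0048 for HSPH1 with lane as a term. Leaving out 1 calf gave -0.0391 to 0.157, -0.0265 to 0.0721 and -0.0630 to 0.0962 for these 3 genes, with the lowest values without X4122_2_H. In C vs. H, HSPA4 turned to 0.0142 without TMM factors, to 0.0568 without the 2 calves, and lay between -0.0611 and 0.0272 with 1 calf left out. In TRT12_H vs. TRT0_H, HSPH1 turned to -0.1268 with lane as a term and to -0.0570 without the 2 calves, and lay between -0.0575 and 0.1889 with 1 calf left out. The r of HSPA9 and HSPH1 was 0.319 centred within groups and 0.390 without the 2 calves. With 1 calf left out, 3 to 5 of the 6 had an unadjusted p under 0.05 in TRT12 vs. TRT0. Genes called between lanes numbered 336, against 685 by the likelihood ratio test, 820 without the filter and 174 without the 2 calves. They numbered 70 to 221 without X4108_1_C, X4151_2_C, X4128_3_H, X4133_1_C or X4143_1_C, and 517 to 1114 without X4144_2_C, X4147_3_C, X4138_1_H, X4158_3_C or X4168_3_H. No paired analysis was possible because the labels give no replicate numbers shared between treatments.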

Other observations

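The remaining cell marker lists were read beside the heat shock protein genes. In TRT12 vs. TRT0 all 7 fibroblast markers had negative log2 fold changes, with a median of -0.18, COL3A1 at -0.18 ± 0.13 and COL1A1 at -0.16 ± 0.21 (SE), and 0 of them had an unadjusted p under 0.05 by edgeR. Of the 8 smooth muscle markers 7 were lower on average, with a median of -0.07, MYH11 at -0.10 ± 0.15 and ACTG2 at -0.03 ± 0.17. Of all genes tested, 49.3% were higher in TRT12. The endothelial (VWF, -0.07 ± 0.12, and KDR, 0.08 ± 0.10), immune (PTPRC, 0.00 ± 0.26, and CSF1R, 0.03 ± 0.14) and enteric neuron or glia markers (UCHL1, -0.08 ± 0.18, and SNAP25, -0.04 ± 0.22) also gave 0 with an unadjusted p under 0.05. The correlation of the 6 genes with the summed markers was 0.0015 to 0.144 for smooth muscle, -0.0845 to 0.141 for fibroblasts, -0.443 to -0.0961 for endothelium, 0.145 to 0.307 for immune cells and -0.112 to 0.0281 for neurons and glia, and none of these 30 relations had an adjusted permutation p of 0.05 or less. Without TMM factors 1 relation with the immune sum had such a p, and with values centred within the 6 groups 3 with the endothelial sum did.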
